A study of Saccharomyces cerevisiae with 48 samples.

Results

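Newly made RNA was compared between 2 budding yeast (Saccharomyces cerevisiae) strains that differed in which part of the BET protein Bdf1 had been altered. In RDY249 the altered copy of BDF1 carried the ET domain substitutions D571A and D573A, and in RDY247 it lacked the B and BID regions. The comparison was made after the tagged Bdf1 and Bdf2 had been removed with auxin. It rested on 6 of the 48 libraries of the series, replicates A, B and C of RDY249 and of RDY247 under indole-3-acetic acid (IAA), identified by their labels. The pair of strains had been picked as belonging to one library series and for a similar median fall of new RNA, so the closeness of their whole-library levels is a description here. The 6 DMSO libraries of the same strains gave the difference present without auxin, and the 6 libraries of RDY73 gave the levels with no altered copy at all.

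Both strains were built on RDY73, a derivative of BY4705 of mating type alpha (ade2 his3Δ200 leu2 lys2 met15 trp1Δ63 ura3Δ0). RDY73 carried pGPD1-OsTIR1:HIS3, BDF2-3xV5-mAID::KanMX and BDF1-3xV5-mAID::URA3, and the controls and all strains compared here shared these alleles. The plasmid pMD42 (RDY247) or pMD44 (RDY249) was integrated at the TRP1 locus and expressed its BDF1 copy from the BDF1 promoter. Cultures received 1 mM IAA or DMSO for 3 h and then 5 mM 4-thiouracil (4tU). The labels give 6 min of labelling and the methods a shorter time. SLAM-seq reads 4tU-labelled RNA as T-to-C conversions after alkylation, and a read with at least 2 conversions is called a T>C read here. Labelled Schizosaccharomyces pombe RNA served as the spike-in. The 3 libraries of a group are biological replicates by the study's methods, and none of the groups used here had an unmodified extra copy.

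BET proteins bind acetylated histones through paired bromodomains and help RNA polymerase II start transcription. The ET domain is a small C-terminal fold that binds short peptides of partner proteins, and acidic residues beside its binding groove contact basic residues of those peptides. The B motif and the basic interaction domain (BID) lie outside the bromodomains and have been linked to dimerization and to contacts with nucleic acids or chromatin. In yeast, Bdf1 and its paralog Bdf2 act at most genes transcribed by RNA polymerase II, and at least 1 of them is needed for growth.

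The reference coding stretch that RDY249 alters is shown first, because it is the only change that defines this strain. It comes from the minus strand of chrXII:919842-919922 (R64) and covers codons 559 to 585 of BDF1 (YLR399C, a protein of 686 residues), 5′ to 3′, with the codons 571 and 573 in capitals.
BDF1 codons 559 to 585: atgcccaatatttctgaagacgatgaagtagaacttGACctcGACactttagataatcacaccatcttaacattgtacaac
Both capital codons encode aspartate and become alanine codons in D571A (919884 to 919886) and D573A (919878 to 919880). Of the 27 codons shown, 8 encode an acidic residue, so the 2 substitutions remove 2 of them. The sequence of the deleted B and BID codons is not shown here.

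The 48 libraries held 3301563 to 10699839 S. cerevisiae reads. The 6 IAA libraries compared here held 5562035 to 8186457 reads, of which 235896 to 348319 were T>C reads, and 336128 to 573027 S. pombe reads. A gene at the median of those tested was covered by 64 T>C reads in the pooled RDY249 IAA libraries and by 66 in those of RDY247 IAA. Of these 6 libraries, RDY247 IAA replicate C stood apart. Its total counts differed from those of replicates A and B with a chi-square per degree of freedom of 72.6 and 73.9, against 8.30 to 20.7 for the other pairs of replicates under IAA. Its counts also varied with gene length, as did its spike-in counts. How much of the chi-square came from length was not tested. In that library the median log2 T>C count of the longest quartile of genes lay 0.44 above that of the shortest, relative to the mean of the 6 IAA libraries. The same measure was 0.70 for S. pombe genes. In the other 5 libraries it lay between -0.26 and 0.08 for T>C counts, and the S. pombe values lay between -0.24 and 0.04. For some of the results that rest on this library, values without it are given below.

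**Figure D1:**
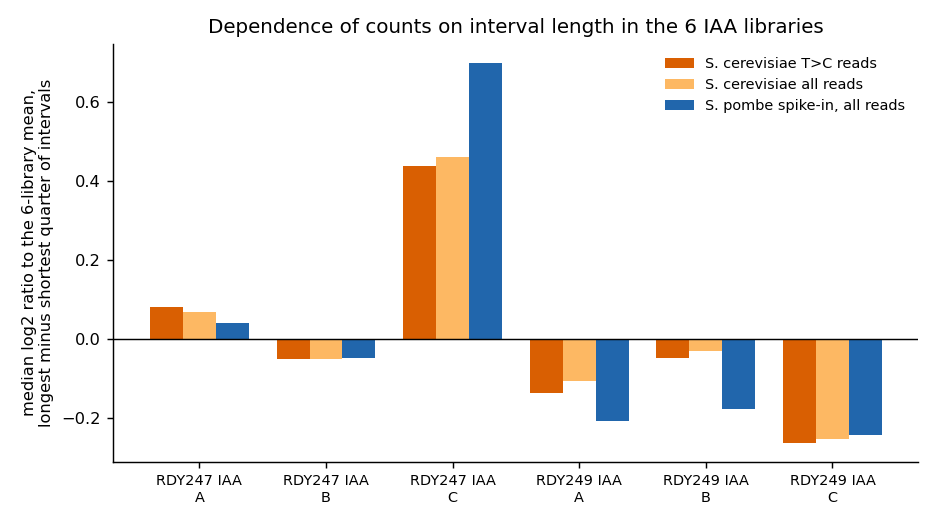
Difference in median log2 count between the longest and the shortest quartile of genes, per IAA library and relative to the mean of the 6, for S. cerevisiae T>C reads, S. cerevisiae total reads and S. pombe total reads. RDY247 IAA replicate C lies above the other libraries on all 3 measures, at 0.44, 0.46 and 0.70.

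The genes altered in these strains were read first. With counts scaled to the spike-in, total BDF1 reads were 1780, 1418 and 1846 in RDY247 IAA and 2012, 1501 and 1277 in RDY249 IAA. The groups overlapped and the fitted log2 difference was -0.08 (adjusted p = 0.82, edgeR). In RDY73 IAA, with no further copy, BDF1 reads were 214, 180 and 174. Reads of the tagged gene and of the integrated copy are counted together, and the 3′-end reads used here cannot show the deletion or the substitutions, so neither altered copy was checked by its own sequence. BDF2 had a log2 difference of -0.05. TRP1, the plasmid marker, was at 8.08 to 10.2 in RDY73 IAA, at 217, 180 and 169 in RDY247 IAA and at 131, 109 and 96.0 in RDY249 IAA. It was lower in RDY249 in all 3 libraries (log2 -0.77 ± 0.18 SE, adjusted p = 0.0055). Under DMSO its log2 difference was -0.64 (adjusted p = 0.11).

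Mating-type genes followed the strain list. The 4 alpha-specific genes summed to 39055 to 48678 normalized reads over the 6 IAA libraries and the 7 a-specific genes to 68.7 to 153. URA3, carried by the BDF1 tag, was at 20375 to 30014 reads. LYS2 lay at 1.06 to 3.30 reads and ADE2 at 27.5 to 44.5. HIS3, the marker of the OsTIR1 construct, was at 0 to 3.64 reads at its native interval. LEU2, deleted in the parent strain, was at 0 to 1.10 reads in RDY247 IAA and at 6.25 to 10.9 in RDY249 IAA. MET17, the met15 gene of the parent genotype, was also higher in RDY249, with 2.12, 3.53 and 1.10 total reads against 6.25, 17.0 and 12.1 (log2 2.49, adjusted p = 0.041), the largest log2 difference among genes called in total reads. Where these few reads came from was not tested.

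Whole-library levels of new RNA were close in the strains under auxin. T>C reads as a share of S. cerevisiae reads, which needs no spike-in, stood at 4.25%, 4.24% and 4.23% in RDY247 IAA. It was 4.18%, 4.08% and 3.90% in RDY249 IAA. All 3 RDY249 values lay below all 3 RDY247 values, with group means of 4.05% ± 0.143 and 4.24% ± 0.0124 (SD, n = 3). In RDY73 IAA the share was 0.762%, 0.748% and 0.684%, so both altered copies held it at more than 5 times that level. S. pombe T>C reads made up 2.29% ± 0.240 (RDY249 IAA) and 2.50% ± 0.235 (RDY247 IAA) of the spike-in reads (exact permutation p = 0.5).

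Scaled to the spike-in, the strains overlapped. In such cultures fewer cells and less RNA per cell cannot be told apart. The ratio of S. cerevisiae to S. pombe reads was 14.7, 16.5 and 16.4 in RDY247 IAA and 19.8, 14.1 and 14.04 in RDY249 IAA. The median log2 T>C level per library, set against the RDY247 IAA mean, was -0.01, 0.11 and -0.14 in RDY247 and 0.35, -0.22 and -0.35 in RDY249. RDY249 replicate A was above every RDY247 library and replicates B and C below them.

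**Figure D2:**
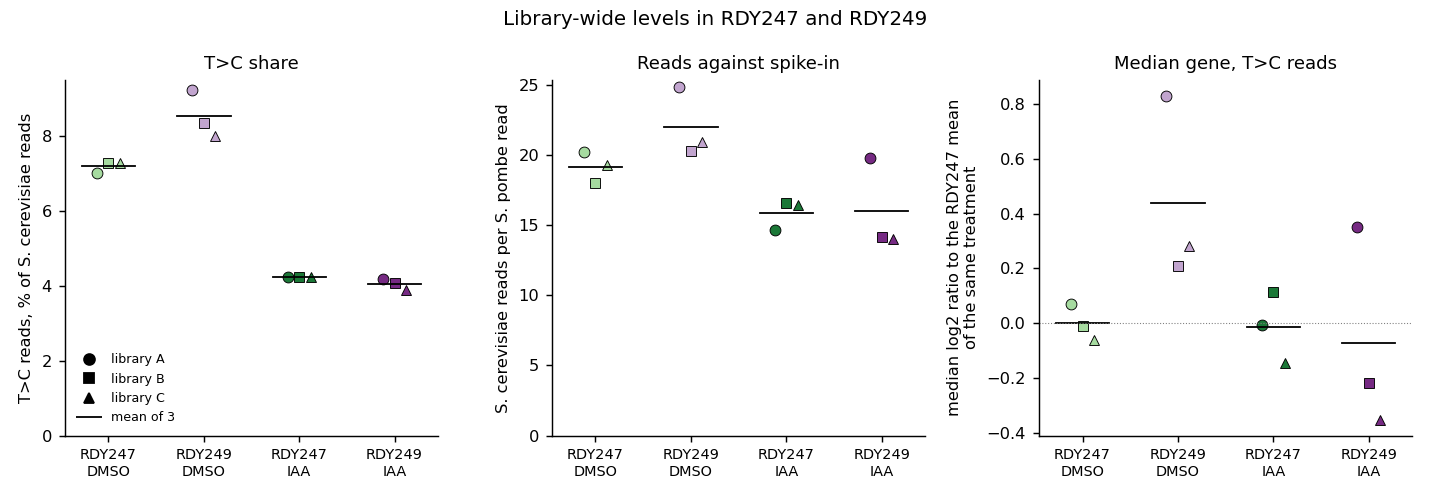
Levels per library in RDY247 and RDY249 under DMSO and IAA, with group means: share of T>C reads in percent, S. cerevisiae reads per S. pombe read, and median log2 T>C count against the RDY247 mean of the same treatment. Under IAA the shares of RDY249 (3.90% to 4.18%) lie just below those of RDY247 (4.23% to 4.25%), while the spike-in scaled values overlap.

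Few genes differed in new RNA between the strains under auxin. Of 5118 genes tested, 25 (0.488%) passed the threshold of an adjusted p under 0.05 and a difference of at least 2-fold, 7 higher in RDY249 (0.137%) and 18 lower (0.352%). The median log2 difference over all tested genes was -0.04, a 1.03-fold difference. At an unadjusted p under 0.05 there were 567 genes. The 3 and 3 libraries did not overlap for 192 genes that were higher in RDY249 (3.75%) and 271 that were lower (5.30%). The precision of the comparison is shown by its 95% intervals: for 2761 genes (53.9%) the interval lay wholly within 2-fold in either direction, and for 4865 within 4-fold. For the genes outside the first count a 2-fold difference was not bounded at this depth. Of the 25 genes none was called in each of the 6 fits that left out 1 IAA library, and none was called without RDY247 IAA replicate C or without RDY249 IAA replicate C. The fits without a library have fewer samples. Several differences stayed about as large in them and others shrank. Without RDY247 IAA replicate C the log2 difference was -1.65 for PAN1, -1.49 for SEC61, -1.56 for TFC3, -1.56 for INN1 and 1.74 for LST7, with adjusted p-values of 0.051 to 0.18. In the same fit MLC2 went from 1.22 to 0.87, FUN14 from 2.26 to 1.61 and RDN25-2 from -1.105 to -0.47. Why the calls were lost was not tested.

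**Figure D3:**
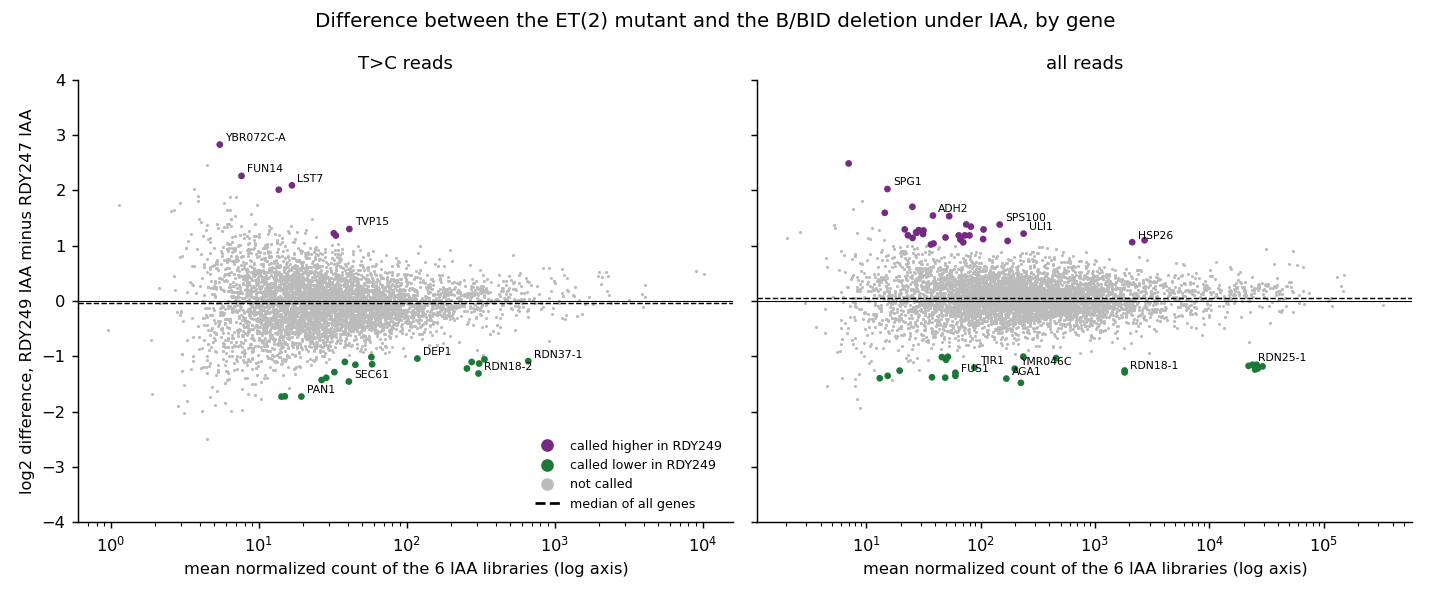
Log2 difference between RDY249 IAA and RDY247 IAA for each tested gene, in T>C reads (left) and all reads (right), against the mean normalized count on a log axis. Coloured points are called genes and the dashed line is the median. In T>C reads the median is -0.04, with 7 called genes above and 18 below, and in all reads 31 lie above and 24 below.

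The genes lower in RDY249 had unlike functions. FUS1 (YCL027W, counted interval chrIII:71803-73591, plus strand), a membrane protein needed for cell fusion in mating, had 19.1, 28.2 and 19.8 normalized T>C reads in RDY247 IAA and 3.12, 6.07 and 9.09 in RDY249 IAA. All 3 RDY249 libraries were low, and the log2 difference was -1.73 ± 0.46 (SE, adjusted p = 0.047). PAN1, a scaffold of the endocytic actin patch, had 29.7, 26.5 and 33.0 reads against 12.5, 3.64 and 11.1 (log2 -1.73 ± 0.38, adjusted p = 0.015). INN1, which acts in ingression of the division furrow, had 19.1, 23.0 and 27.5 reads against 4.69, 9.71 and 6.06 (log2 -1.73 ± 0.41, adjusted p = 0.023). For each of these 3 genes the groups did not overlap, which was a condition for naming them. Their levels were below 35 reads per library.

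SEC61 (YLR378C, chrXII:875486-877178, minus strand), the channel subunit of the ER translocon, had higher counts, with 71.0, 47.7 and 57.2 T>C reads in RDY247 IAA and 34.4, 18.2 and 15.2 in RDY249 IAA (log2 -1.46 ± 0.31, adjusted p = 0.015). TFC3, the largest subunit of the RNA polymerase III factor TFIIIC, had 36.0, 58.3 and 31.9 reads against 7.81, 24.3 and 13.1 (log2 -1.39 ± 0.33, adjusted p = 0.023). In both the highest RDY249 library stayed below the lowest RDY247 library, as the naming rule required.

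MSA1, an activator of G1 transcription (log2 -1.43), SOK2, a transcription factor of filamentous growth (-1.29), and HRK1, a kinase that activates the plasma membrane proton pump (-1.14), were also called lower. So were VIP1, an inositol polyphosphate kinase (-1.10), and DEP1, a subunit of the Rpd3L histone deacetylase (-1.04). UPA2 (-1.15) was called as well, though its interval shares bases with YMR311C on the same strand. For DEP1 the RDY249 libraries were at 136, 46.1 and 53.6 reads against 161, 164 and 146, so replicate A was near the RDY247 level.

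The genes called lower also held ribosomal DNA transcripts, RDN18-1, RDN18-2, RDN25-1, RDN25-2, RDN37-1 and ITS2-1 (log2 -1.31 to -1.06). Their intervals overlap and their copies are near identical, so reads could not be given to 1 copy with certainty, and 3′ mRNA libraries are not made to capture them. RDN18-1 had 243, 282 and 541 T>C reads in RDY247 IAA and 205, 167 and 92.0 in RDY249 IAA. Total reads of RDN25-1 were 19152, 19627 and 59773 against 19504, 14251 and 10558. The high RDY247 value was replicate C, the library that stood apart in gene length, and replicates A and B lay close to RDY249 replicate A. Without that library the T>C log2 difference was -0.78 for RDN18-1 and -0.96 for RDN18-2, and neither was called. Both were called with the length trend, described below, removed.

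Of the 7 genes called higher in RDY249, LST7 (YGR057C, chrVII:604523-605501, minus strand), which with Lst4 acts on Rag GTPases in nutrient signalling, differed most clearly. It had 7.41, 8.83 and 3.30 T>C reads in RDY247 IAA and 28.1, 25.5 and 27.3 in RDY249 IAA (log2 2.09 ± 0.42, adjusted p = 0.015). The 3 RDY249 libraries agreed closely and lay far above the others, though LST7 was not called in the 12-library fit. TVP15, a Golgi vesicle membrane protein, had 30.7, 19.4 and 18.7 reads against 82.8, 41.3 and 52.5 (log2 1.30 ± 0.33, adjusted p = 0.034). TIM18, a subunit of the inner membrane translocase TIM22, had 21.2, 21.2 and 17.6 reads against 68.7, 26.7 and 43.5 (log2 1.18 ± 0.31, adjusted p = 0.047). MLC2, a light chain of the type II myosin Myo1, had 16.9, 33.5 and 9.90 reads against 48.4, 48.5 and 35.4 (log2 1.22 ± 0.32, adjusted p = 0.045). In all 4 genes the lowest RDY247 value was that of replicate C. Without that library the log2 differences were 1.145 for TVP15, 1.09 for TIM18 and 0.87 for MLC2, and none was called.

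The other 3 genes called higher had few reads. FUN14, a mitochondrial outer membrane protein, had 36 T>C reads over the 6 libraries (log2 2.26), and YBR072C-A, outside the naming rule and named because it was called, had 26 (log2 2.83) and lies on the strand opposite HSP26. YIR021W-A (log2 2.01) shares bases with YIR021W and YIR022W. All 7 called genes lay in the shortest quartile of intervals, with a median length of 742 bases, against 2095 for the 18 called lower and 1474 for all tested genes. Length in that respect moved with the calls, as it did with the counts of RDY247 IAA replicate C. With a length trend estimated from the S. pombe genes removed, 30 genes were called, 4 higher and 26 lower, and 16 of the 25 were among them.

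**Figure D4:**
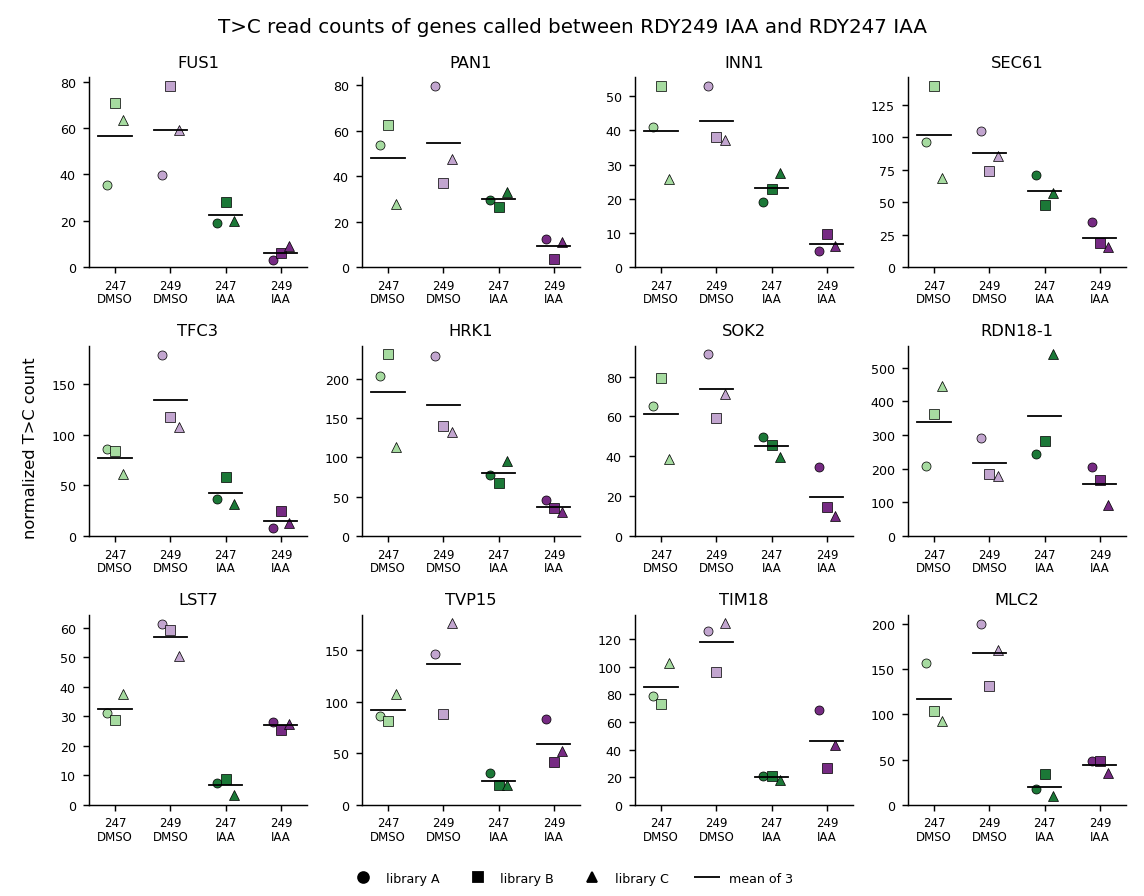
Normalized T>C reads per library in RDY247 and RDY249 under DMSO and IAA for FUS1, PAN1, INN1, SEC61, TFC3, HRK1, SOK2, RDN18-1, LST7, TVP15, TIM18 and MLC2, with group means. Under IAA, LST7 is at 3.30 to 8.83 in RDY247 and 25.5 to 28.1 in RDY249, whereas RDN18-1 is spread from 243 to 541 within RDY247.

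Across 34 gene lists with at least 3 tested members, called genes fell in 2, the ribosomal DNA transcripts (6 of 17 lower) and the mating pheromone response genes (1 of 14 lower, FUS1). Over all tested genes 0.352% were called lower. The ribosomal DNA intervals overlap, so their 6 calls are not separate results. In the other 32 lists no member was called, and their medians ran from -0.33 to 0.38 against -0.04 over all genes. The 138 cytosolic ribosomal protein genes had a median of 0.07 and the 101 ribosome biogenesis genes one of -0.08. The medians were -0.12 for TFIID and general transcription factor genes, -0.15 for NuA4, SWR1 and SAGA genes (Bdf1 is a part of SWR1) and 0.02 for RNA polymerase II and Mediator genes. These values describe the lists and carry no test.

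The lowest median without a called member was that of the 27 Hsf1-target chaperone genes, at -0.33, where 1 member lay above the median of all genes and 9 had RDY249 libraries wholly below those of RDY247, where 5.30% of all tested genes did. SSE1, an Hsp110 chaperone, had 254, 245 and 344 T>C reads in RDY247 IAA and 181, 166 and 160 in RDY249 IAA (log2 -0.74, adjusted p = 0.054). BTN2, which sorts misfolded proteins, had 381, 348 and 438 reads against 206, 237 and 192 (log2 -0.88, adjusted p = 0.052). Neither passed the test, although in both the groups did not overlap. With the length trend removed the median of the list was -0.47.

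The highest median was that of the 11 histone genes, at 0.38, with 10 of them above the median of all genes and none called. HTA1, encoding histone H2A, had 400, 427 and 302 T>C reads against 933, 490 and 585 (log2 0.83, adjusted p = 0.040), less than 2-fold. Histone genes are short, and with the length trend removed their median was 0.17. Likewise the 72 mitochondrial ribosomal protein genes had a median of 0.19, or 0.01 with the trend removed, and cytosolic ribosomal protein genes one of -0.11 with it removed. The 25 tested Msn2/4-type general stress genes had a median of 0.11.

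Total reads measure RNA made before labelling as well as new RNA and gave deeper counts. Of 5907 genes tested, 55 (0.931%) were called, 31 higher in RDY249 (0.525%) and 24 lower (0.406%), and the median log2 difference was 0.04. The interval lay within 2-fold for 5131 genes (86.9%). At an adjusted p under 0.05 and any fold there were 361 genes (6.11%), 233 higher (3.94%) and 128 lower (2.17%). The groups did not overlap for 380 genes higher in RDY249 (6.43%) and 183 lower (3.10%). Of the 55 genes, 11 were called in each of the 6 fits without 1 IAA library and also with the length trend removed. These 11 were AGA1, TIR1, YKR041W and YMR046C, lower in RDY249, and ADH2, SPS100, YDL218W, SPG4, SOM1, ULI1 and PCK1, higher. Without both C libraries 12 genes were called. They included YMR046C and the 7 higher genes just named, and also FUS1, TPT1 and RGS2. AGA1, TIR1 and YKR041W were not called there, with log2 differences of -1.30, -1.20 and -1.16 and adjusted p-values of 0.053, 0.072 and 0.072. In the spike-in, which carries no difference between the strains, 87 of 4338 S. pombe genes (2.01%) passed the same threshold, 71 of them lower in the RDY249 libraries and 16 higher.

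In total reads mating genes were among those lower in RDY249. Haploid cells of mating type alpha respond to a-factor through a MAP kinase cascade that ends in the factor Ste12, which binds the pheromone response element TGAAAC. AGA1 (YNR044W, chrXIV:703699-706126, plus strand), the anchor subunit of a-agglutinin, had 150, 311 and 274 total reads in RDY247 IAA and 79.7, 101 and 92.0 in RDY249 IAA. All 3 RDY249 libraries were lower (log2 -1.40 ± 0.27, adjusted p = 0.0014). FUS1 had 82.6, 90.0 and 91.3 reads against 7.81, 46.1 and 43.5 (log2 -1.35 ± 0.28, adjusted p = 0.0023), with RDY249 replicate A lowest by far. FUS1 was called in 5 of the 6 fits without 1 library. SAG1, the alpha-agglutinin, had 1899, 2424 and 2570 reads against 822, 1581 and 1418 (log2 -0.85 ± 0.16, adjusted p = 0.0014), a fall of less than 2-fold.

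In total reads 2 of the 17 tested pheromone response genes were called, AGA1 and FUS1, where 0.406% of all genes were called lower. Of the 17 genes, 5 were lower at an adjusted p under 0.05 and any fold (2.17% of all genes). RDY249 libraries lay wholly below those of RDY247 for 8 (3.10% of all genes). FUS3, the MAP kinase of the pathway, had a log2 difference of -0.80 (adjusted p = 0.015) and FAR1, which arrests the cell cycle, one of -0.45 (adjusted p = 0.035). STE3, the a-factor receptor, was at -0.38 (adjusted p = 0.042). STE12 itself had 284, 281 and 286 total reads against 255, 227 and 183 and did not pass the test (log2 -0.37, adjusted p = 0.090), nor did GPA1, the G protein alpha subunit (-0.21). The list had a median of -0.21 against 0.04 over all genes, and 3 of the 4 alpha-specific genes were lower at an adjusted p under 0.05. The other alpha-specific gene, MF(ALPHA)1, was not lower. It had 25100, 27840 and 20360 total reads in RDY247 IAA and 33410, 25140 and 30100 in RDY249 IAA. Of the a-specific genes 5 had enough total reads to be tested and none was called. In T>C reads the pheromone list had 14 tested members, a median of -0.46 and FUS1 as the only call. RDY249 libraries lay wholly below those of RDY247 for 4 of the 14 (5.30% of all genes). They lay wholly above for 2 (3.75% of all genes). AGA1 was not called in T>C reads under IAA.

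Under DMSO, without auxin, FUS1 and AGA1 were not alike. FUS1 had 144, 175 and 162 total reads in RDY247 DMSO and 87.9, 215 and 130 in RDY249 DMSO, with overlapping groups (log2 -0.12, adjusted p = 0.71). AGA1 had 385, 483 and 289 reads in RDY247 DMSO and 124, 294 and 218 in RDY249 DMSO (log2 -0.84, adjusted p = 0.17), and in T>C reads it was called lower there (log2 -1.01, adjusted p = 0.031). The difference of the responses did not pass the test in total reads for FUS1 (-1.23, adjusted p = 0.19) or AGA1 (-0.56, adjusted p = 0.52).

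The promoters of the mating genes with the largest falls are shown because the elements that pheromone signalling acts on lie in them. Each is the stretch from 250 to 131 bases before the start codon (R64), 5′ to 3′ on the plus strand, with TGAAAC and its reverse complement GTTTCA in capitals.
FUS1, chrIII:71553-71672: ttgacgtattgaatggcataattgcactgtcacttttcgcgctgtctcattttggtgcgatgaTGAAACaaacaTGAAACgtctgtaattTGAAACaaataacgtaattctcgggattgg
AGA1, chrXIV:703449-703568: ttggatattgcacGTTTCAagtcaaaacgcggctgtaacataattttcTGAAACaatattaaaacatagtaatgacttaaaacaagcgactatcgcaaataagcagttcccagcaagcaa
FUS1 held 3 matches in the 250 bases before its start and AGA1 held 2. The motif was searched on both strands after the values of these genes had been seen, and 1092 of 6461 promoters (16.9%) of the same length held it. Over all genes with the motif the median log2 difference was -0.065 in T>C counts, against -0.037 without it. A match of letters does not show that the site is bound.

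TIR1, YKR041W and YMR046C were also lower in total reads and called in each fit without 1 IAA library, and of these YMR046C was called without both C libraries too. TIR1, a cell wall mannoprotein, had 139, 113 and 118 total reads in RDY247 IAA and 43.7, 65.5 and 50.5 in RDY249 IAA (log2 -1.21 ± 0.27, adjusted p = 0.0043). Under DMSO its counts were 270, 408 and 178 against 82.9, 138 and 172 (log2 -1.11, adjusted p = 0.095), so the groups did not overlap there either. Of the ribosomal DNA transcripts 9 of 18 tested were called lower in total reads, where 0.406% of all genes were. Their intervals overlap, so these are not 9 separate results, and the high counts of RDY247 IAA replicate C described above enter them.

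The 7 higher genes were called in each fit without 1 IAA library and without both C libraries. In total reads no gene was called under DMSO, and none for the difference of the responses to IAA. Whether these 7 differences depend on auxin was therefore not settled. ADH2, the glucose-repressed alcohol dehydrogenase, had 24.4, 14.1 and 17.6 total reads in RDY247 IAA and 89.0, 40.1 and 44.5 in RDY249 IAA (log2 1.54 ± 0.32, adjusted p = 0.0020). SPS100, a spore wall protein, had 82.6, 97.1 and 64.9 reads against 291, 186 and 160 (log2 1.38 ± 0.22, adjusted p = 0.00011). SPG4, required for survival in stationary phase, had 40.2, 75.9 and 28.6 reads against 100.0, 135 and 113 (log2 1.34 ± 0.23, adjusted p = 0.00024). In these 3 genes every RDY249 library was above every RDY247 library, as the naming rule required. PCK1, the gluconeogenic PEP carboxykinase, had 56.1, 42.4 and 46.2 reads against 123, 116 and 94.98 (log2 1.18 ± 0.24, adjusted p = 0.0018).

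SOM1, a factor of the mitochondrial inner membrane peptidase, had 59.3, 60.0 and 62.7 total reads against 195, 165 and 94.0 (log2 1.29 ± 0.21, adjusted p = 0.00015). ULI1 had 150, 180 and 102 reads against 345, 316 and 331 (log2 1.22 ± 0.17, adjusted p = 2.9e-05), and YDL218W had 33.9, 54.7 and 37.4 reads against 130, 104 and 88.9 (log2 1.38 ± 0.24). Called higher on fewer reads, or not in every fit, were SPG1, needed at high temperature in stationary phase (log2 2.02), MAL12, a maltase (1.70), GAL10, of galactose use (1.29), JEN1, the lactate permease (1.14), and HXT5, a hexose transporter of slow-growing cells (1.06). These genes were picked out after their values were seen and no list of such genes was counted. The T>C counts of ADH2, SPG4, PCK1 and TIR1 were too low to be tested, so their new RNA could not be compared.

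Among the small heat-shock proteins HSP26 had 1516, 1649 and 946 total reads in RDY247 IAA and 3208, 2563 and 2800 in RDY249 IAA (log2 1.06 ± 0.17, adjusted p = 0.00015). RDY247 replicate C was the lowest, and without both C libraries, or with the length trend removed, the difference was 0.87, below 2-fold. HSP12 had 33493, 51703 and 26516 reads against 88729, 57071 and 63751 (log2 0.91 ± 0.19, adjusted p = 0.0023), also under 2-fold. Of the 41 Msn2/4-type stress genes 1 was called (HSP26), 8 were higher at an adjusted p under 0.05 (3.94% of all genes), 13 had RDY249 libraries wholly above those of RDY247 (6.43% of all genes) and none wholly below. Of the 27 Hsf1-target genes 4 were lower at an adjusted p under 0.05 (2.17% of all genes), SSE1 (log2 -0.49), STI1 (-0.58), SSA2 (-0.62) and BTN2 (-0.66), and none was higher.

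**Figure D5:**
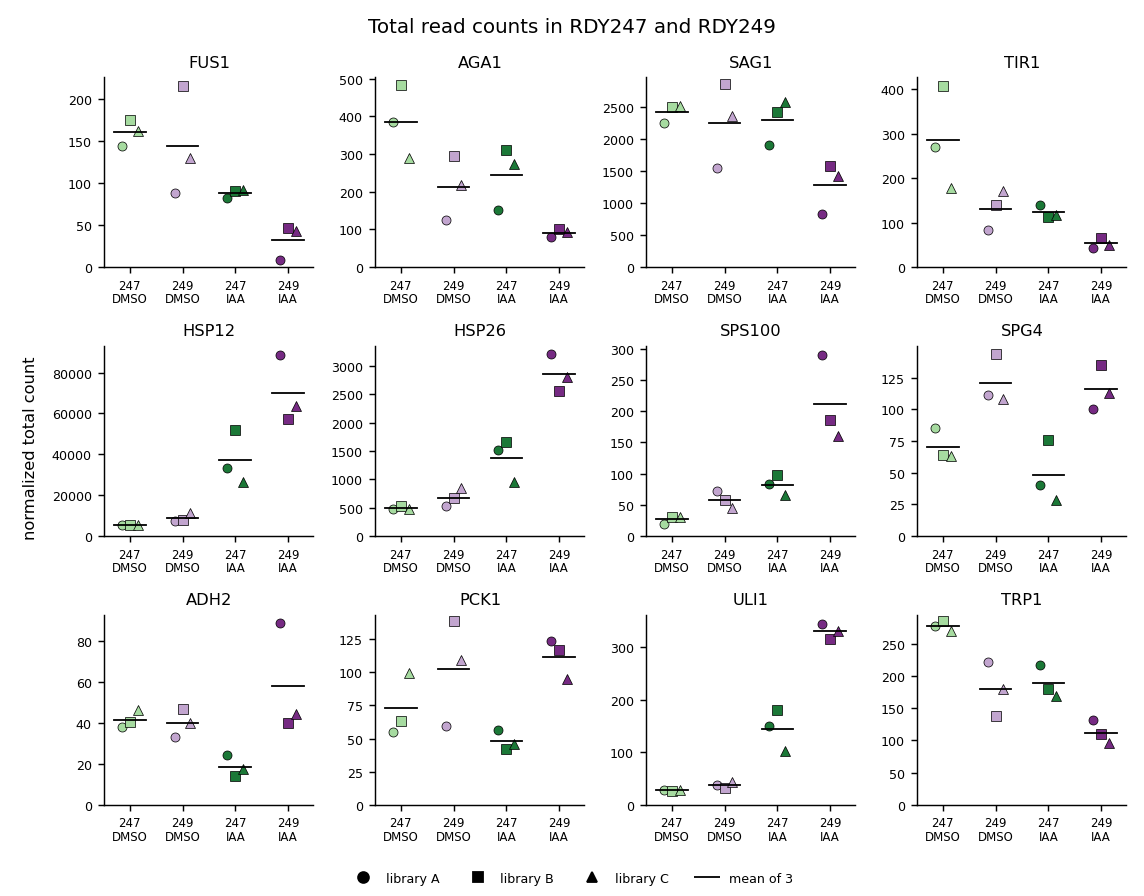
Normalized total reads per library in RDY247 and RDY249 under DMSO and IAA for FUS1, AGA1, SAG1, TIR1, HSP12, HSP26, SPS100, SPG4, ADH2, PCK1, ULI1 and TRP1, with group means. Under IAA, AGA1 is at 79.7 to 101 in RDY249 against 150 to 311 in RDY247, and SPS100 at 160 to 291 against 64.9 to 97.1.

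The strains differed without auxin as well. Under DMSO the share of T>C reads was 7.03%, 7.29% and 7.30% in RDY247 and 9.25%, 8.37% and 8.01% in RDY249, so RDY249 was higher in all 3 libraries (exact permutation p = 0.1, the smallest possible). The mean S. pombe T>C share was also higher, at 2.67% in RDY249 DMSO and 2.35% in RDY247 DMSO, with overlapping groups (exact permutation p = 0.3). Scaled to the spike-in, the median gene had a T>C log2 difference of 0.47, a 1.39-fold higher level in RDY249, where replicate A stood highest. Without RDY249 DMSO replicate A the median was 0.26 and 1 gene was called. The medians per library were 0.83, 0.21 and 0.28 in RDY249 and 0.07, -0.01 and -0.06 in RDY247. Of 5118 genes 76 (1.48%) were called, 73 higher in RDY249 (1.43%) and 3 lower (0.0586%), AGA1 (log2 -1.01), NCP1 (-1.08) and LAS17 (-1.23). In total reads no gene of 5907 was called under DMSO by edgeR (0%), with 1191 at an unadjusted p under 0.05. In T>C reads scaled with S. pombe T>C size factors, the median was 0.36 and 7 genes were called. With TMM size factors, which remove a shift shared by most genes by construction, 8 genes were called, all of them lower.

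Both strains lost new RNA when auxin was added, each against its own DMSO libraries. In RDY249 the median log2 change was -1.81 (3.52-fold) with 4836 of 5118 genes lower (94.5%). In RDY247 it was -1.30 (2.46-fold) with 3917 lower (76.5%). HSP12 rose in both, by 1.62 in RDY249 and 1.70 in RDY247 on the log2 scale. Of 4 genes called higher in RDY249 (0.0782%) the others were YDL218W, NCA3 and DDR2, and of 6 in RDY247 (0.117%) the others were ATG17 and the mitochondrial transcripts 15S_RRNA, 21S_RRNA, BI2 and BI3. Both strains kept far more new RNA under IAA than RDY73, by a median log2 of 4.33 in RDY249 and 4.38 in RDY247.

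The difference between these responses was tested gene by gene. Its median was -0.51, so the drop was larger in RDY249, and 82 genes (1.60%) were called, all of them with a larger drop in RDY249. TFC3 had 86.3, 83.7 and 61.2 T>C reads in RDY247 DMSO and 179, 117 and 108 in RDY249 DMSO, the reverse of the order seen under IAA (difference of the log2 responses -2.19 ± 0.40, adjusted p = 0.0019). MET6, the methionine synthase (-1.53, adjusted p = 0.024), and ASF1, a histone chaperone (-1.48, adjusted p = 0.025), were also called. MED1, a Mediator subunit, had a difference of -1.83 and MET1, of sulfate assimilation, one of -2.28. BTN2 (-1.25), STI1 (-1.10) and SSE1 (-1.03) were the called Hsf1-target genes, and the list had a median of -0.71. In total reads the median difference of the responses was -0.16, and edgeR called no gene (0%), with 728 at an unadjusted p under 0.05.

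This larger drop came with the higher DMSO level of RDY249 described above. The T>C share, which needs no spike-in, went from 8.54% to 4.05% in RDY249 and from 7.21% to 4.24% in RDY247. In the same libraries the S. pombe T>C share went from 2.67% to 2.29% (RDY249) and from 2.35% to 2.50% (RDY247). How far labelling or conversion entered the shares was not tested. With S. pombe T>C size factors the median difference of the responses was -0.46 and 73 genes were called. TMM size factors set the bulk of genes equal and so cannot show a shared shift, and relative to the bulk TFC3 alone was called. Without RDY249 DMSO replicate A the median difference of the responses was -0.29 and 3 genes were called, and without RDY249 IAA replicate A the median was -0.73 and 871 genes were called. Transcripts of the mitochondrial genome, which are not made by RNA polymerase II, had a median difference of 0.91 under DMSO and -0.24 under IAA.

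The difference between the strains under IAA was also set against how far a gene depended on Bdf1 and Bdf2. Across genes, which are not independent replicates, it had a Pearson r of -0.13 with the response of RDY73 to IAA, and of -0.003 over the 1205 genes that averaged 100 or more T>C reads. In quartiles of genes by the RDY73 response, from the largest drop to the smallest, the median differences were 0.05, -0.03, -0.07 and -0.09. From the largest drop to the smallest these quartiles held 6, 1, 0 and 0 of the genes called higher in RDY249 and 3, 2, 6 and 7 of those called lower. The IAA responses of RDY249 and RDY247, which share no library, had an r of 0.54 over 5118 genes and of 0.77 over the 1205 genes with deeper counts. With interval length the difference had an r of -0.20 (Spearman rho -0.23), and the medians from the shortest quartile to the longest were 0.12, -0.03, -0.09 and -0.15. S. pombe genes in the same libraries had an r of -0.22 with length, and with their trend removed the S. cerevisiae value was 0.06. The promoter motifs TATAAA (43.9% of promoters), AGGGG (18.3%) and GATGAG (16.6%), each on both strands, came with medians of -0.033, -0.054 and -0.043, against -0.047, -0.038 and -0.041 without them.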

How the data were processed

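SLAM-seq libraries were trimmed with fastp (version 0.23.2) and bbduk, and reads were aligned, filtered and counted by the authors with SLAM-DUNK (version 0.4.3 per the file headers) against the R64-3-1 and ASM294v2 genomes. The deposited values are raw counts per gene and library, of total reads and of T>C reads with at least 2 conversions. The intervals run 250 bases past the gene end, and 1316 share bases with another on the same strand.

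Size factors were the median of ratios of S. pombe total counts. Genes with a mean count of at least 10 were tested in edgeR (quasi-likelihood, version 4.0.16 under R 4.3.3) in one fit of all 48 libraries, 16 groups of 3, with Benjamini-Hochberg adjustment. A gene was called at an adjusted p under 0.05 and 2-fold. All adjusted p-values are from this test. The fit was tested on simulated counts with the same spread for every gene, no length trend and no outlying library. That test therefore cannot speak to the length trend or to RDY247 IAA replicate C. Alternatives were other scalings, filters, DESeq2 (version 1.42.0), a 12-library fit, a replicate block, leaving out each library and, chosen after seeing the data, removal of the S. pombe length trend and leaving out both C libraries under IAA.

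Named genes were the 12 largest differences in each direction with non-overlapping groups and at least 30 T>C reads, up to 4 members a list, label checks, the 6 smallest p per direction of the interaction, and all calls where 5 or fewer. Further genes are named after their values were seen. The members and lists were chosen with earlier results of these data known. 1 result that the rule named is not reported here.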

Additional observations from a re-analysis of the deposited data

Results flagged for a closer look

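Genes whose response to IAA differed between the strains numbered 82 by the test of the difference itself, and all dropped further in RDY249. By name they include TFC3 (difference of log2 responses -2.19), MET6 (-1.53), ASF1 (-1.48), MET1 (-2.28), MED1 (-1.83), PAN1 (-1.88), INN1 (-1.81), SOK2 (-1.55) and UPA2 (-1.36). Of genes on the lists, UTP20 of ribosome biogenesis had a difference of -1.24, PAF1 and DST1 of transcript elongation had -1.17 and -1.47, and the chaperone genes BTN2, STI1 and SSE1 had -1.25, -1.10 and -1.03. MYO1, the type II myosin of cytokinesis, was at -1.12, VTC4 of polyphosphate synthesis at -1.09, and SNR14, the U4 snRNA gene with 30 T>C reads over the IAA libraries, at -3.29. The rDNA copies RDN25-1 and RDN25-2 were at -1.35 and -1.31. The median over all tested genes was -0.51, so most genes dropped further in RDY249. The count of 82 fell to 3 without RDY249 DMSO replicate A, and to 1 with TMM or in the 12-library fit. It rose to 871 without RDY249 IAA replicate A, and further settings are given below. In total reads no gene was called.

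In the spike-in, which the strain comparisons do not use gene by gene, 87 S. pombe genes passed the same threshold between the RDY249 IAA and RDY247 IAA libraries.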

How the results depend on the processing

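The T>C share difference under IAA (-0.19 percentage points) lay between -0.25 and -0.11 without 1 library and was -0.24 without mitochondrial and ribosomal RNA. The median log2 difference under IAA (-0.04) stayed between -0.26 and 0.09.

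Counts of calls moved more. For T>C counts under IAA (25), they were 43 with summed S. pombe reads (8 higher, 35 lower), 43 with TMM (20 and 23), 1 in the 12-library fit, 0 without both C libraries, and 0 to 79 without 1 library (0 without RDY247 or RDY249 replicate C, 11 without RDY249 replicate B, 79 without RDY249 replicate A). For the DMSO comparison (76), they were 7 with S. pombe T>C size factors (5 and 2), 8 with TMM, 8 at a mean count of at least 50 (8 and 0), 33 with DESeq2 (30 and 3), 1 in the 12-library fit, 1125 at any fold, and 1 to 240 without 1 library. For the difference of responses (82), they were 363 with summed reads, 1 with TMM, 128 at a mean count of at least 50, 169 with DESeq2, 1 in the 12-library fit, 311 with the length trend removed, 2 without both C libraries, and 2 to 871 without 1 library. For total reads (55), they were 33 at a mean count of at least 50 (13 and 20), 33 in the 12-library fit, 361 at any fold, 12 without both C libraries, and 22 to 101 without 1 library (22 without RDY247 replicate C, 89 without RDY247 replicate B, 101 without RDY249 replicate A). Splits of total calls were 27 and 37 with summed reads and 29 and 36 with S. pombe T>C size factors. The replicate block was added to the 12-library fit, whose counts of 1, 1, 1 and 33 in the same order became 15, 2, 1 and 51 with it. Deviations of libraries with the same letter correlated at -0.18 to 0.11, and whether the letters pair the libraries was not settled. The causes were not tested.

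BDF1 and BDF2, not called, changed sign. Without 1 IAA library their log2 differences ran, in T>C counts, from -0.15 to 0.37 (BDF1) and from -0.43 to 0.067 (BDF2), and in total reads from -0.28 to 0.060 (BDF1) and from -0.37 to 0.13 (BDF2). With the length trend removed they were 0.013 (BDF1) and 0.0067 (BDF2) in total reads. Without both C libraries they were 0.13 (BDF1) and 0.051 (BDF2) in total reads, and BDF2 was at 0.079 in T>C counts.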
